A study of Mus musculus with 15 samples.

Results

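Many mouse genes have a neighbour on the other DNA strand that carries the gene's own symbol followed by "os", for opposite strand. The deposited count table held 324 genes whose symbol ends in os, with or without digits, and for 299 of them the symbol without that ending was another gene in the table, called the host here. The 126 selected on a mean of at least 0.3 CPM (counts scaled to a common library total) over all 15 libraries are described, together with their 121 hosts. The table held 54532 genes in all. The minimum used the mean over every library, so levels as such are a description and carry no test. Igf2os at 0.301 and Rptoros at 0.302 CPM lay just inside the minimum, and Frs3os at 0.298 and Cyp4x1os at 0.290 CPM just outside. Of the 173 candidates below it, 24 had no count in any library. Lrp8, Pcsk2, Rapgef4, Prkag2 and Ube4b hosted 10 of the 126 transcripts, which are therefore not independent of each other.

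Opposite-strand transcripts are mostly long non-coding RNAs. They arise in several ways, as the second product of a promoter that fires in both directions, as antisense RNA begun within or beyond the host, or as an ordinary gene that happens to face its neighbour. Some are known to alter the level or splicing of the host in cis and others act elsewhere or have no known role. Brain expresses many of them, beside genes for transcription factors and synaptic proteins in particular.

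RNA came from the ipsilateral basal ganglia of 15 wild-type mice perfused with saline. Each mouse gave 1 library, and there were 3 groups of 5. Sham mice had surgery without haemorrhage and were gavaged with distilled water. The ICH mice had an intracerebral haemorrhage and also received distilled water. The NYKD mice had the same haemorrhage and were gavaged with Nao Yi Kang decoction, 5.79 g/kg daily, over 3 days, and are called NYKD-M in the design text. All tissue was taken on day 3. Strain, sex and age are not stated in the labels. Poly-A RNA was sequenced and total counts per library ran from 13539203 to 19909140. Cells infiltrating, dying or dividing after a bleed alter bulk tissue, in which fewer cells of a type and less RNA per cell cannot be told apart.

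In the GENCODE mouse M21 annotation all 126 transcripts lay on the strand opposite to their host. By arrangement, 41 overlapped the host's 5′ end, 40 lay inside the host, 22 lay upstream of its start without overlap, 14 overlapped its 3′ end, 5 contained the host and 4 lay downstream of its end. In 63 cases the annotated starts lay within 1000 bases of each other. The annotation classed 101 as antisense RNA and 7 as protein-coding, among them Wdr83os, Slc7a6os and Brd3os. Exons of 81 transcripts shared bases with exons of the host, over 0.362% to 56.8% of the transcript's exon bases with a median of 10.1%, and 45 shared none. The library protocol names no step that marks the strand, so reads in shared bases cannot be assigned to either gene, and the counting program is not given in the sources used here. Only exons were compared, so a transcript inside its host can share no exon base and still lie over host introns. Reads of unspliced host RNA there could not be told from its own.

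Most of these transcripts were scarce. Their mean level had a median of 1.10 CPM, 59 were below 1 CPM, and only 9 reached 10 CPM, with Rab10os the highest at 42.3 CPM. Hosts had a median of 37.1 CPM and ranged from 0.0905 to 407 CPM. Per kilobase of exon, the median transcript stood at 11.4% of its host. Ppp2r2cos, Rapgef4os2, Pitpnm2os2, Dnm3os, Pcsk2os2 and Rapgef4os3 were under 1% of the host per kilobase. In contrast, 15 transcripts exceeded the host on this scale, among them Ccdc142os at 2170%, Brip1os at 1416%, Epb41l4aos at 1168% and Wdr83os at 403%.

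**Figure D1:**
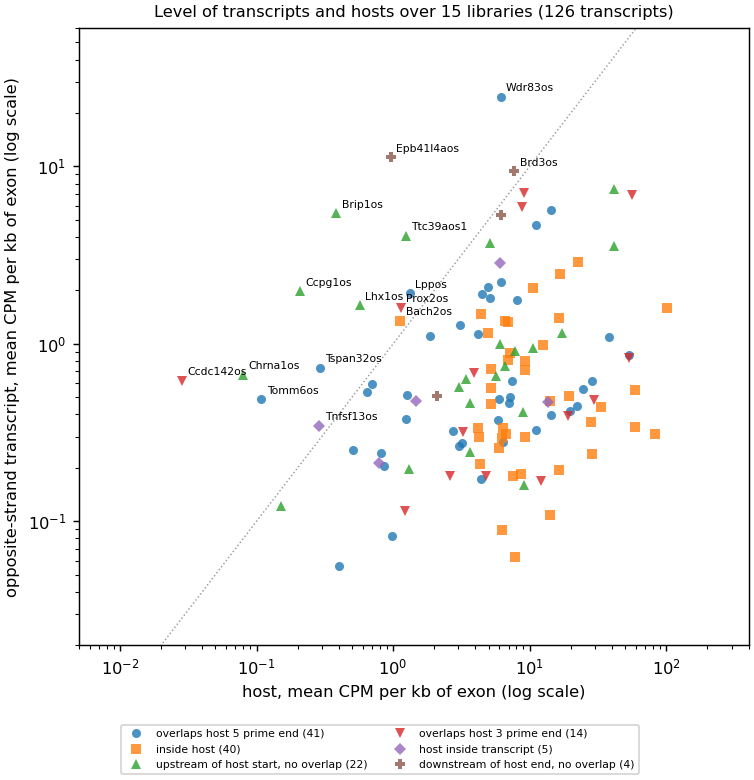
Mean level of each of the 126 opposite-strand transcripts (vertical, CPM per kilobase of exon, log scale) against its host (horizontal, same unit, log scale) over 15 libraries, with symbols for the arrangement of the pair. The dotted line marks equal levels, and the 15 named transcripts lie above it.

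For 31 pairs, 1 RefSeq promoter window (250 bases before to 50 after a gene's start, build GRCm38.p6, which is mm10) held the annotated starts of both genes. RefSeq had windows for 85 of the 126 transcripts and 99 of the 121 hosts. The 4 windows below belong to pairs that behaved differently, and were chosen after their values were seen. Brip1 and Brip1os both rose after ICH. Fam120a and Fam120aos went in opposite directions in NYKD against sham, the ratio of Phf2os1 to Phf2 was lower in NYKD than in ICH, and Cep83os is among the most abundant transcripts and was not called in any comparison. The Brip1 window is chr11:86201144-86201443 on the minus strand, the Fam120a window chr13:48968011-48968310 on the minus strand, the Phf2 window chr13:48870836-48871135 on the minus strand and the Cep83 window chr10:94688540-94688839 on the plus strand. Each is written 5′ to 3′ on the host's strand. Capitals mark the CCAAT box and the GC box GGGCGG, searched on both strands, where ATTGG and CCGCCC are their reverse complements and neighbouring matches may share bases.
Brip1 and Brip1os: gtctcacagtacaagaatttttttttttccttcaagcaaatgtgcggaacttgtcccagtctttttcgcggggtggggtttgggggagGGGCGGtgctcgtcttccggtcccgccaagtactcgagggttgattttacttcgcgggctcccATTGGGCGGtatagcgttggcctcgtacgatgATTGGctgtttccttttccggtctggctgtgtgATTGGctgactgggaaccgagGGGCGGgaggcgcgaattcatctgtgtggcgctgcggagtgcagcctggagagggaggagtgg
Fam120a and Fam120aos: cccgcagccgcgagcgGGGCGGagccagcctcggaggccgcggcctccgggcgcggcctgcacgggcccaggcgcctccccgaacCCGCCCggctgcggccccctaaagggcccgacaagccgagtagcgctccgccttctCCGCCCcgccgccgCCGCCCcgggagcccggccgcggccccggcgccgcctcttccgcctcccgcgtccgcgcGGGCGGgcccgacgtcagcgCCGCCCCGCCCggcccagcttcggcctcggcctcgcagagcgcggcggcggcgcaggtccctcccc
Phf2 and Phf2os1: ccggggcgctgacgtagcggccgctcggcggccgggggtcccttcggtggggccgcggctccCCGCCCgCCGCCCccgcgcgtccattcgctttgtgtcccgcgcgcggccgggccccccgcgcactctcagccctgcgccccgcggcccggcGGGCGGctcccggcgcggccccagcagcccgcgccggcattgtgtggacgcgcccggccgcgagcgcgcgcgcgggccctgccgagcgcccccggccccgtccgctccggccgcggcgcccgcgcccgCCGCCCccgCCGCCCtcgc
Cep83 and Cep83os: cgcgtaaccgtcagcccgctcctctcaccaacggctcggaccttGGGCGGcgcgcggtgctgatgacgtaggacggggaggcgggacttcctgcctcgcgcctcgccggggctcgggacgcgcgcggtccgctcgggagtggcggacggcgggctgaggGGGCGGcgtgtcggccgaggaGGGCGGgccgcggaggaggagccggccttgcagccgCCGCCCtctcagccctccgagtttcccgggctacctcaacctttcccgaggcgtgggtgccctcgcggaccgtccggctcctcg

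The Brip1 window held 3 CCAAT boxes and 3 GC boxes, whereas the Fam120a, Phf2 and Cep83 windows held no CCAAT box and 7, 5 and 4 GC boxes. G and C made up 57.0% of the Brip1 window and 84.3%, 87.0% and 75.7% of the others. Across the 31 windows with both starts, the median GC content was 64.0%, against 52.7% over all 32851 windows of the same length. Their CpG dinucleotides stood at a median 0.848 of the number that base composition gives, against 0.384 over all windows. A GC box was present in 21 of 31 windows (67.7%) and in 35.7% of all windows. A CCAAT box was present in 12 of 31 (38.7%) and in 37.4% of all windows. A match describes the letters only.

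Across all 126 transcripts, the group mean was lower in NYKD than in ICH for 102, or 81.0%, while 52.6% of the 19588 genes with the same minimum level were lower. Hosts did not share this lean: 55 of 121 (45.5%) were lower in NYKD than in ICH. In ICH against sham, 45 transcripts (35.7%) and 45.4% of all genes had a lower mean. In NYKD against sham, 85 transcripts (67.5%) and 52.6% of all genes did. Without a filter on low counts, the median log2 fold change of the transcripts was 0.17 in ICH against sham, -0.39 in NYKD against ICH and -0.29 in NYKD against sham, beside 0.04, 0.01 and -0.01 over all genes. The 3 comparisons share groups, so these values are not independent of each other.

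Other non-coding classes leaned the same way. Among 716 further antisense genes, 80.3% had a lower mean in NYKD than in ICH, and among 803 lincRNA genes 71.1% did, against 47.3% of 15570 protein-coding genes. The summed level of the 126 transcripts was 401, 423, 415, 436 and 309 CPM in sham, 407, 428, 406, 482 and 485 CPM in ICH, and 365, 361, 311, 302 and 330 CPM in NYKD. All 5 NYKD libraries were below all 5 ICH libraries, and sham replicate 5 fell among the NYKD libraries. The same library was low for other antisense genes, at 1193 CPM where the other sham libraries had 1735 to 2002 CPM and the NYKD libraries 1168 to 1428 CPM. For lincRNA genes it had 4395 CPM, against 8221 to 10068 CPM in the other sham libraries. Protein-coding genes summed to 973169 to 979921 CPM in NYKD and 964445 to 967604 CPM in ICH. What part library composition had in the lean of the opposite-strand transcripts was not tested. Without sham replicate 5, 59 transcripts had a lower mean in ICH than in sham and 86 in NYKD than in sham.

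**Figure D2:**
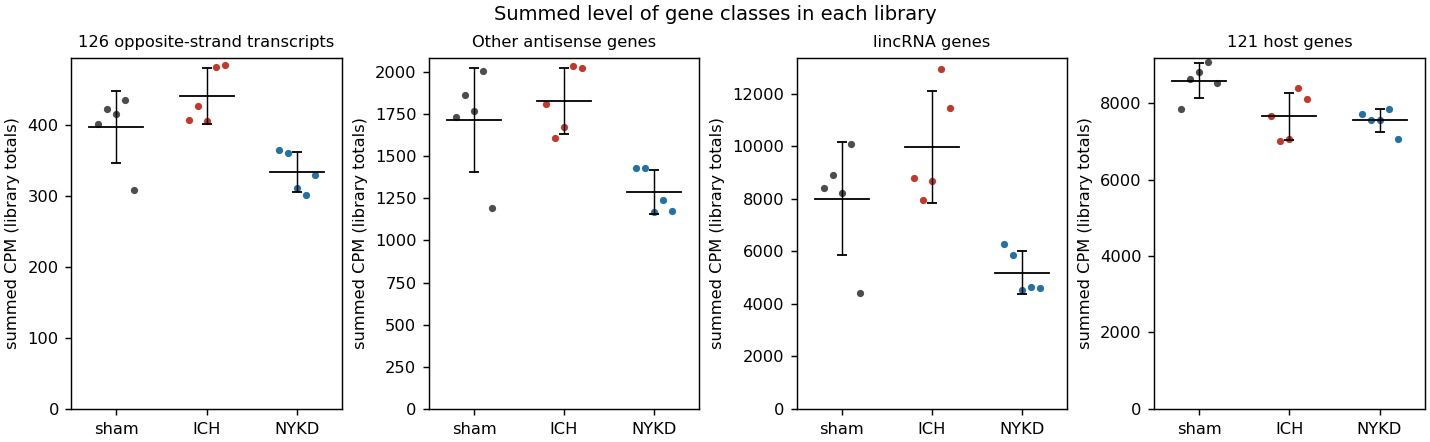
Summed CPM (scaled by library totals) of the 126 opposite-strand transcripts, the other antisense genes, the lincRNA genes and the 121 hosts in each library, with the group mean (bar) and SD over 5 libraries. NYKD libraries lie between 302 and 365 CPM for the transcripts and ICH libraries between 406 and 485 CPM, and sham replicate 5 stands at 309 CPM.

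The arrangements were counted separately. Of the 40 transcripts inside their host, 31 had a higher mean in ICH than in sham and 33 a lower mean in NYKD than in ICH, with medians of 0.36 and -0.65 on the log2 scale. Of the 14 that overlapped the host's 3′ end, 13 were lower in NYKD than in ICH, with a median of -0.77. For the 22 upstream of the host, 15 were lower and the median was -0.14. Differences between arrangements were not tested.

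Single transcripts were tested with edgeR's quasi-likelihood test over all 18052 genes that passed the filter on low counts, and called at an adjusted p under 0.05. Changes below are log2 fold changes ± standard error, and levels are TMM-scaled CPM in replicates 1 to 5. The 93 transcripts and 117 hosts that passed had tests, and the other 33 transcripts had none. In ICH against sham, 7 transcripts rose and none fell, where 17.0% of all tested genes were called, 12.4% raised and 4.58% lowered. The raised transcripts were Brip1os, Adap2os, Sap30bpos, Bach2os, Tspan32os, Galnt6os and Foxl2os. In that comparison 16 hosts rose and 8 fell. At an unadjusted p under 0.05 there were 12 of the 93 transcripts, beside 5617 of all 18052 tested genes.

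NYKD against ICH gave 4 lowered transcripts and no raised one, where 3.46% of all genes were called, 1.19% raised and 2.27% lowered. They were Prox2os, Grin1os, Tbx3os1 and Sorbs2os. An unadjusted p under 0.05 was seen for 23 of the 93 tested transcripts and for 4185 of all 18052 tested genes. These calls depended on single libraries: none was left without sham replicate 2 or 3, ICH replicate 2, 4 or 5, or any 1 NYKD library, with 18 to 24 transcripts still under an unadjusted p of 0.05. There were 2 without sham replicate 4, 7 without sham replicate 5 and 8 without ICH replicate 1. Among the hosts Rptor and Zmiz1 rose and Fbxl12, Slc7a6 and Ift88 fell. EdgeR called 0 hosts without ICH replicate 4 or 5 or without NYKD replicate 1, 3, 4 or 5, with 24 to 29 hosts at an unadjusted p under 0.05. Host calls were 2 without sham replicate 2 or 3, ICH replicate 2 or 3 or NYKD replicate 2, 8 without sham replicate 5 and 14 without ICH replicate 1.

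In NYKD against sham 5 transcripts rose and 12 fell, where 23.4% of all genes were called, 15.3% raised and 8.08% lowered. Brip1os, Adap2os, Bach2os, Junos and Zeb2os rose. Those that fell were Prox2os, Chn1os3, Grin1os, Tbx3os1, Rapgef4os2, Sorbs2os, Atcayos, Fam120aos, Rab10os, Brd3os, Zfp335os and Far1os. The count was 11 without sham replicate 2 or 3, 10 without sham replicate 4, 11 without NYKD replicate 3 and 9 without NYKD replicate 5. Among hosts 20 rose and 12 fell.

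Part of the 121 hosts were sorted by what they do, in groups made by hand once the members were known. Hosts outside these groups, some of them called, are not counted here, and the counts are a description only. Over all tested genes, 12.4% rose and 4.58% fell in ICH against sham, and 15.3% rose and 8.08% fell in NYKD against sham. Of 22 hosts with roles in neuronal signalling, channels or adhesion, 21 were tested. Among them 6 fell and none rose in ICH against sham, and 7 fell and 1 rose in NYKD against sham. Of the 21 tested transcripts beside them, none was called in ICH against sham, and 5 fell and none rose in NYKD against sham. Among 9 hosts for secreted factors, receptors and immune genes, 5 rose in ICH against sham and 7 in NYKD against sham, and none fell. Of the 4 transcripts tested beside those 9, 2 rose in ICH against sham and 1 in NYKD against sham. Of 4 hosts for DNA repair and chromosomes, 3 rose in ICH against sham and 2 in NYKD against sham, and 1 of their 3 tested transcripts rose in each. Of 10 hosts for chromatin and transcription regulators, none was called in ICH against sham and 1 rose in NYKD against sham. Of their 7 tested transcripts, 1 rose in the first comparison and 1 fell in the second. Of 3 hosts for cilium and centrosome proteins, 1 rose in ICH against sham and none was called in NYKD against sham, and none of their 3 transcripts was called in either. Of 20 tested transcription factor hosts, 1 rose in ICH against sham, and 3 rose and 3 fell in NYKD against sham. Beside the 21 transcription factors, 19 transcripts were tested, of which 2 rose in ICH against sham, and 3 rose and 3 fell in NYKD against sham. In NYKD against ICH, where 1.19% of tested genes rose and 2.27% fell, the calls in these groups were 1 raised chromatin host, 1 lowered cilium or centrosome host, 2 lowered transcripts beside neuronal hosts and 2 beside transcription factors.

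The transcript with the smallest p in any comparison was Brip1os (ENSMUSG00000085208, chr11:86201370-86304443, plus strand), whose start lies 177 bases from that of Brip1, a helicase that works with BRCA1 in DNA repair. Its level was 22.9, 18.0, 16.6, 18.9 and 11.1 in sham, 46.4, 42.3, 55.4, 15.6 and 29.8 in ICH and 43.5, 54.1, 53.2, 39.8 and 58.9 in NYKD libraries, in CPM. ICH replicate 4, at 15.6 CPM, was the only ICH or NYKD library within the sham range. The log2 fold change was 1.12 ± 0.27 (adjusted p = 0.00859) in ICH against sham and 1.51 ± 0.27 (adjusted p = 0.000743) in NYKD against sham. For Brip1 itself the levels were 0.308, 1.26, 0.640, 0.526 and 0.465 in sham, 5.18, 3.32, 7.02, 0.989 and 1.51 in ICH and 3.89, 4.81, 4.49, 3.84 and 4.29 in NYKD CPM. Brip1 rose more steeply, by 2.48 ± 0.49 (adjusted p = 0.00231) and 2.72 ± 0.49 (adjusted p = 0.000768). The test of the ratio gave -1.06 ± 0.29 (adjusted p = 0.0207) and -1.10 ± 0.29 (adjusted p = 0.0115) for Brip1os relative to Brip1. Markers of dividing cells moved in the same libraries: all 5 listed genes (Mki67, Top2a, Aurkb, Ccnb1 and Cdk1) rose in both comparisons, none was at 0 in every library, and their summed level was 18.3 to 45.2 CPM in sham, 46.7 CPM in ICH replicate 4, 176 to 484 CPM in the other ICH libraries and 211 to 419 CPM in NYKD. Microglia markers did so too: of 6 listed genes, none at 0 in every library, 3 rose in ICH against sham and 5 in NYKD against sham. Their summed level was 450 to 611 CPM in sham, 541 CPM in ICH replicate 4, 1073 to 1227 CPM in the other ICH libraries and 855 to 1636 CPM in NYKD. This was not particular to these lists. Of 4 endothelium markers, 3 rose in ICH against sham and 4 in NYKD against sham, and ICH replicate 4 had the lowest ICH sum (235 CPM). Reactive astrocyte, monocyte and macrophage, and neutrophil lists also had called rises in both comparisons, but ICH replicate 4 was not the lowest ICH library in them. In neutrophil markers ICH replicate 4 summed to 438 CPM, against 4.32 to 12.8 CPM in the other ICH libraries. Its monocyte and macrophage sum, 355 CPM, was the highest in ICH. Choroid plexus and ependyma markers ran from 27.9 to 5898 CPM within ICH. The part of any of these marker lists in the result was not tested. Over the 15 libraries the tested genes with the highest correlation to Brip1os in log2 CPM were Tbxas1, the thromboxane synthase, at a Pearson r of 0.98, Rbl1, a pocket protein of the cell cycle, at 0.98, and Knl1, a kinetochore protein, at 0.98. Group means were not removed, so genes with like group differences correlate highly. The named genes are the extremes of all tested genes and are a description only.

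Adap2os (ENSMUSG00000086507, chr11:80158861-80177629, minus strand) lies inside Adap2, an activator of the GTPase activity of ARF6. Its levels were 1.29, 1.20, 0.576, 0.855 and 0.465 in sham, 2.24, 2.35, 2.30, 3.04 and 3.15 in ICH and 1.77, 2.96, 2.50, 3.01 and 2.53 in NYKD CPM. Every ICH and every NYKD library was above every sham library. The change was 1.56 ± 0.31 (adjusted p = 0.00258) in ICH against sham and 1.53 ± 0.31 (adjusted p = 0.00209) in NYKD against sham, and Adap2 rose by 0.98 ± 0.24 (adjusted p = 0.00846) and 1.41 ± 0.24 (adjusted p = 0.000462). The ratio of Adap2os to Adap2 changed by 0.51 ± 0.32 (adjusted p = 0.297) in ICH against sham, which was not called. Exons of Adap2 covered 14.8% of the exon bases of Adap2os. The genes most correlated with Adap2os over the libraries were Dysf, a membrane repair protein, at 0.96, Rgs1, a regulator of G protein signalling in leukocytes, at 0.96, and Serpina3n, a protease inhibitor of reactive astrocytes, at 0.96. Here too group means were not removed, and the values are a description only.

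Tspan32os (ENSMUSG00000052281, chr7:142988969-143008033, minus strand) overlaps the 5′ end of Tspan32, a tetraspanin of blood cells. The transcript stood at 0.493, 0.457, 0.256, 0.526 and 0.116 in sham, 1.41, 0.966, 0.826, 0.919 and 2.24 in ICH and 0.767, 0.740, 0.384, 0.256 and 0.411 in NYKD CPM. Every ICH library was above every sham library, and NYKD libraries overlapped the sham range. It rose by 1.77 ± 0.46 (adjusted p = 0.0147) in ICH against sham, while NYKD against sham gave 0.47 ± 0.48 (adjusted p = 0.509). Tspan32 ran from 0.0581 to 0.576 in sham, 1.34 to 5.78 in ICH and 1.35 to 3.47 in NYKD CPM and rose by 2.71 ± 0.52 (adjusted p = 0.00212) and 2.43 ± 0.52 (adjusted p = 0.00317). The ratio in NYKD against sham was lower, at -1.82 ± 0.52 (adjusted p = 0.0173). Monocyte and macrophage markers (6 listed, 5 tested, 4 raised in each of these comparisons, none at 0 in every library) summed to 1.11 to 12.2 CPM in sham, 97.7 to 355 CPM in ICH and 167 to 404 CPM in NYKD. All 6 listed reactive astrocyte markers rose in both comparisons, and none was at 0 in every library. They summed to 462 to 1884 CPM in sham, 6115 to 7582 CPM in ICH and 4771 to 7906 CPM in NYKD. The part of either list in the changes of Adap2os and Tspan32os was not tested.

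Bach2os (ENSMUSG00000086150, chr4:32559680-32571708, minus strand) lies inside Bach2, a transcriptional repressor best known in lymphocytes. Its levels were 1.17, 1.03, 1.34, 0.724 and 0.871 in sham, 4.47, 4.41, 5.90, 0.565 and 3.09 in ICH and 3.42, 5.86, 3.84, 1.60 and 5.46 in NYKD CPM. All ICH libraries except replicate 4 were above the sham range, as were all NYKD libraries. It rose by 1.84 ± 0.47 (adjusted p = 0.0131) in ICH against sham and 1.97 ± 0.47 (adjusted p = 0.00666) in NYKD against sham. Bach2 ran from 8.09 to 11.6 in sham, 7.35 to 13.1 in ICH and 11.2 to 14.0 in NYKD CPM and changed by 0.15 ± 0.17 (adjusted p = 0.588) and 0.39 ± 0.17 (adjusted p = 0.103), neither called. The ratio rose in both comparisons, by 1.32 ± 0.41 (adjusted p = 0.0366) and 1.37 ± 0.41 (adjusted p = 0.023). ICH replicate 4, low in Bach2os, was also the ICH library with the lowest microglia marker sum (541 CPM), and NYKD replicate 4, the lowest NYKD library in Bach2os, had the lowest such sum in NYKD (855 CPM). This was not particular to microglia markers. The same libraries were lowest of their groups for markers of dividing cells (46.7 and 211 CPM), oligodendrocytes (2710 and 5926 CPM) and endothelium (235 and 241 CPM). In the other marker lists they were not both lowest. The part of any of these markers in the changes of Bach2os was not tested.

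**Figure D3:**
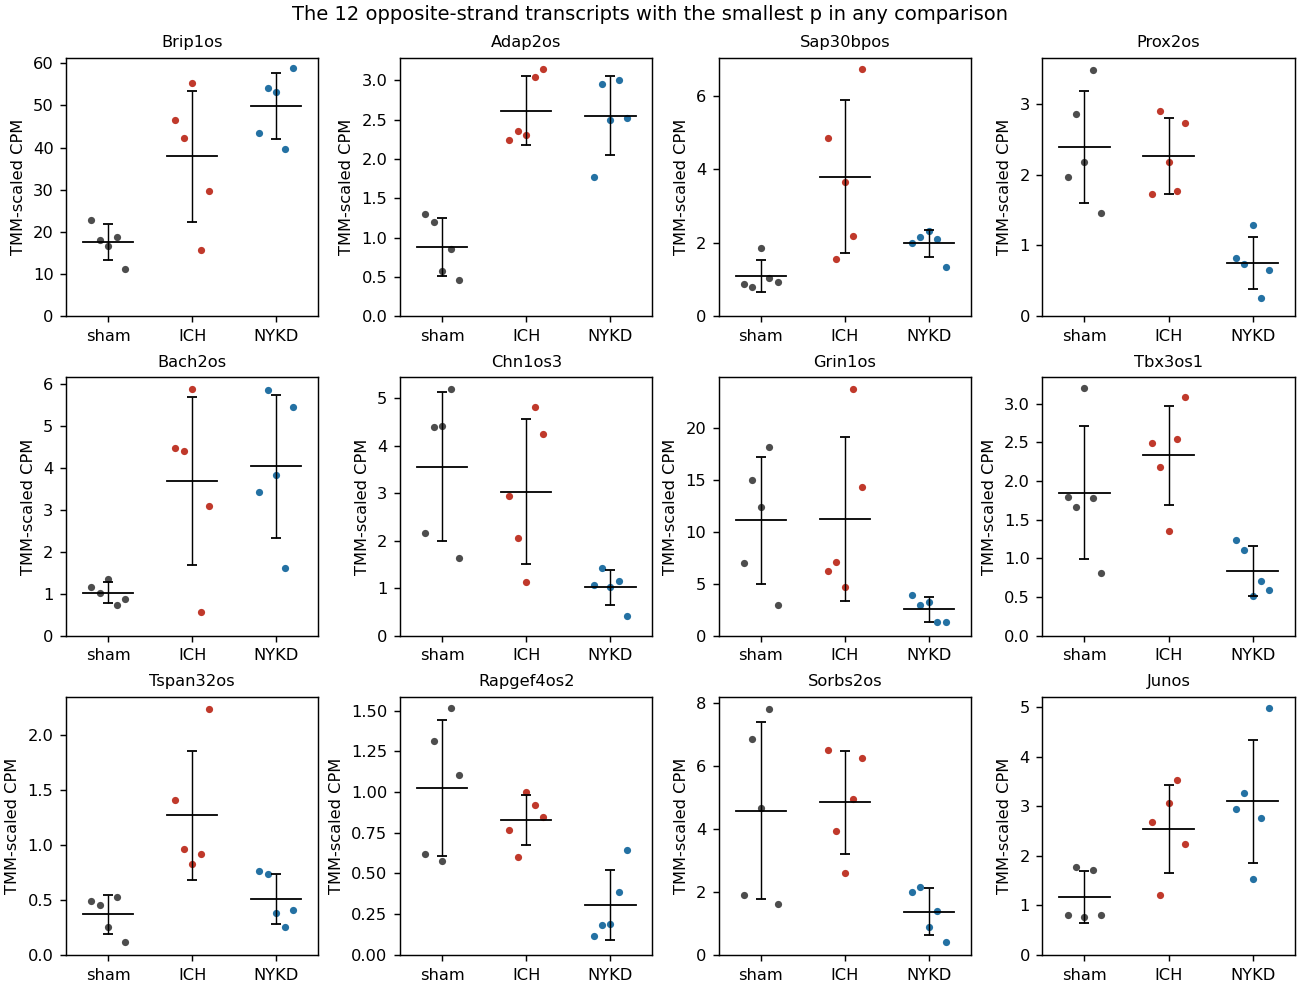
Level (TMM-scaled CPM) in each library of the 12 opposite-strand transcripts with the smallest p in any comparison, with group mean (bar) and SD over 5 libraries. Brip1os, Adap2os and Bach2os are higher in ICH and NYKD than in sham apart from ICH replicate 4 of Brip1os and Bach2os, whereas Prox2os, Chn1os3, Grin1os and Sorbs2os are low in NYKD.

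Sap30bpos (ENSMUSG00000087064, chr11:115946450-115952105, minus strand) lies inside Sap30bp, a transcriptional regulator and splicing factor, and shares no exon base with it. Its levels were 0.863, 0.800, 1.86, 1.05 and 0.929 in sham, 4.86, 1.57, 3.66, 2.19 and 6.73 in ICH and 2.01, 2.16, 2.31, 2.11 and 1.35 in NYKD CPM. ICH replicate 2 was within the sham range, which sham replicate 3 widened. It rose by 1.78 ± 0.38 (adjusted p = 0.0042) in ICH against sham, and gave -0.93 ± 0.37 (adjusted p = 0.141) in NYKD against ICH. Sap30bp ran from 43.7 to 59.7 in sham, 37.9 to 48.6 in ICH and 41.9 to 50.3 in NYKD CPM, with a change of -0.23 ± 0.12 (adjusted p = 0.196) in ICH against sham. The ratio rose by 1.79 ± 0.37 (adjusted p = 0.00307).

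Beside Jun, the AP-1 transcription factor that injury induces early, Junos (ENSMUSG00000087366, chr4:95051534-95167318, plus strand) overlaps the host's 5′ end. Junos stood at 0.802, 1.77, 0.768, 1.71 and 0.813 in sham, 2.68, 1.21, 3.07, 3.53 and 2.24 in ICH and 2.95, 3.27, 1.54, 2.75 and 4.99 in NYKD CPM. It gave 1.11 ± 0.38 (adjusted p = 0.055) in ICH against sham and rose by 1.40 ± 0.38 (adjusted p = 0.0144) in NYKD against sham. Without NYKD replicate 5, the highest of the 15 libraries, the latter was 1.16 with an adjusted p of 0.0535. Jun ran from 37.8 to 65.4 in sham, 71.2 to 96.1 in ICH and 85.0 to 115 in NYKD CPM and rose in both comparisons, by 0.93 ± 0.15 (adjusted p = 0.000673) and 1.14 ± 0.15 (adjusted p = 6.8e-05). The ratio of the pair changed by 0.15 ± 0.41 (adjusted p = 0.837) in NYKD against sham, which was not called.

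Tbx3os1 (ENSMUSG00000087516, chr5:119570130-119671365, minus strand) starts 347 bases from Tbx3, a T-box transcription factor of development. Its levels were 1.79, 1.66, 3.20, 1.78 and 0.813 in sham, 2.49, 2.17, 1.36, 2.54 and 3.09 in ICH and 1.24, 1.11, 0.513, 0.705 and 0.587 in NYKD CPM. Every NYKD library was below every ICH library, and sham replicate 5 fell within the NYKD range. The change was -1.48 ± 0.38 (adjusted p = 0.0455) in NYKD against ICH and -1.14 ± 0.38 (adjusted p = 0.04) in NYKD against sham. Leaving out single libraries moved the adjusted p of the former between 0.0174 and 0.114, past the threshold for 12 of 15 libraries. Tbx3 went the other way, from 1.91 to 3.82 in sham, 3.30 to 5.62 in ICH and 4.41 to 7.26 in NYKD CPM, with 0.42 ± 0.24 (adjusted p = 0.312) in NYKD against ICH and a called rise of 0.80 ± 0.24 (adjusted p = 0.0246) in NYKD against sham. The ratio fell in both comparisons, at -1.80 ± 0.36 (adjusted p = 0.0152) and -1.80 ± 0.36 (adjusted p = 0.0015). Without NYKD replicate 3 the first of these had an adjusted p of 0.0501.

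Prox2os (ENSMUSG00000093629, chr12:85086374-85088228, plus strand) overlaps the 3′ end of Prox2, a homeobox gene, and shares 56.8% of its exon bases with it, the highest share among the 126. Its levels were 1.97, 2.86, 2.18, 3.49 and 1.45 in sham, 1.73, 2.90, 2.18, 1.77 and 2.73 in ICH and 0.826, 0.740, 1.28, 0.256 and 0.646 in NYKD CPM. Every NYKD library was below every ICH and every sham library. It fell by 1.58 ± 0.37 on the log2 scale in NYKD against ICH (adjusted p = 0.0359) and by 1.66 ± 0.37 in NYKD against sham (adjusted p = 0.00423). The first call, like the others of that comparison, was lost without sham replicate 2 or 3, ICH replicate 2, 4 or 5, or any NYKD library. Prox2 stood at 5.73, 6.57, 6.60, 7.43 and 3.31 in sham, 4.41, 3.92, 4.66, 4.31 and 6.54 in ICH and 3.66, 1.79, 3.14, 1.86 and 3.23 in NYKD CPM, with -0.80 ± 0.27 (adjusted p = 0.0949) and -1.11 ± 0.27 (adjusted p = 0.00756) in the same comparisons. The ratio was not called in either, at -0.73 ± 0.32 (adjusted p = 0.149) and -0.50 ± 0.32 (adjusted p = 0.293).

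Grin1os (ENSMUSG00000085830, chr2:25291220-25298925, plus strand) lies inside Grin1, the obligatory subunit of NMDA receptors, and shares 45.2% of its exon bases with it. Its levels were 7.03, 15, 12.4, 18.2 and 2.90 in sham, 6.20, 7.12, 4.72, 23.7 and 14.3 in ICH and 3.89, 2.96, 3.27, 1.28 and 1.29 in NYKD CPM. All NYKD libraries were below all ICH libraries, and sham replicate 5 was within the NYKD range. The change was -2.14 ± 0.53 (adjusted p = 0.0416) in NYKD against ICH and -2.12 ± 0.53 (adjusted p = 0.00908) in NYKD against sham. Leaving out single libraries moved the first adjusted p between 0.0148 and 0.103, past the threshold for 10 of 15 libraries. Grin1 ran from 190.0 to 337 in sham, 89.9 to 428 in ICH and 102 to 184 in NYKD CPM, with -0.48 ± 0.33 (adjusted p = 0.4) in NYKD against ICH and -0.88 ± 0.33 (adjusted p = 0.0623) in NYKD against sham. The former, which was not called, was -0.07 without ICH replicate 4 and lay between -0.66 and -0.07 over single omissions. The ratio fell, at -1.68 ± 0.41 (adjusted p = 0.0266) in NYKD against ICH.

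Sorbs2os (ENSMUSG00000085440, chr8:45723325-45819297, minus strand) lies inside Sorbs2, an adaptor protein of the actin cytoskeleton. It stood at 1.91, 6.86, 4.67, 7.83 and 1.63 in sham, 6.52, 3.92, 2.59, 4.95 and 6.24 in ICH and 2.01, 2.16, 0.897, 1.41 and 0.411 in NYKD CPM. Every NYKD library was below every ICH library, whereas sham replicates 1 and 5 were within the NYKD range. The change was -1.81 ± 0.48 (adjusted p = 0.0496) in NYKD against ICH and -1.73 ± 0.48 (adjusted p = 0.0167) in NYKD against sham. Single omissions moved the first adjusted p between 0.0226 and 0.118, past the threshold for 13 of 15 libraries. Sorbs2 ran from 87.6 to 188 in sham, 86.2 to 157 in ICH and 70.7 to 109.9 in NYKD CPM and gave -0.46 ± 0.20 (adjusted p = 0.175). The ratio fell, at -1.39 ± 0.41 (adjusted p = 0.0438) in NYKD against ICH.

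Chn1os3 (ENSMUSG00000086544, chr2:73596526-73616012, plus strand) overlaps the 3′ end of Chn1, which encodes a neuronal GTPase-activating protein for Rac. Its levels were 2.16, 4.40, 4.42, 5.20 and 1.63 in sham, 2.94, 2.05, 1.12, 4.81 and 4.24 in ICH and 1.06, 1.42, 1.03, 1.15 and 0.411 in NYKD CPM. It fell by 1.80 ± 0.44 on the log2 scale in NYKD against sham (adjusted p = 0.00731), and all NYKD libraries were below all sham libraries. Chn1 ran from 230.1 to 767 in sham, 161 to 444 in ICH and 90.6 to 402 in NYKD CPM and fell by 1.14 ± 0.38 in that comparison (adjusted p = 0.0416). Chn1 missed the threshold when any of 9 libraries was left out, with a highest adjusted p of 0.0909, reached without NYKD replicate 5.

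Rapgef4os2 (ENSMUSG00000085001, chr2:72224688-72232302, minus strand) lies inside Rapgef4, a cAMP-activated exchange factor for Rap. It stood at 0.617, 1.31, 0.576, 1.51 and 1.10 in sham, 0.767, 0.604, 1.00, 0.919 and 0.848 in ICH and 0.118, 0.185, 0.192, 0.384 and 0.646 in NYKD CPM. NYKD replicate 5 alone of its group reached the sham range. These levels were low, and per kilobase the transcript was under 1% of its host. The change in NYKD against sham was -1.72 ± 0.46 (adjusted p = 0.0128). Rapgef4 fell by 0.99 ± 0.28 in ICH against sham (adjusted p = 0.0227) and by 0.93 ± 0.28 in NYKD against sham (adjusted p = 0.0236). Without NYKD replicate 5 the latter had an adjusted p of 0.0571. Rapgef4os3, inside the same host, shares libraries and host with it and was called only as a ratio, at 1.82 ± 0.48 (adjusted p = 0.0158) in ICH against sham.

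Atcayos (ENSMUSG00000085779, chr10:81194609-81210877, plus strand) overlaps the 3′ end of Atcay, which encodes caytaxin, a neuronal protein altered in a human ataxia. Its levels were 1.91, 4.17, 2.18, 4.74 and 1.28 in sham, 2.30, 3.32, 2.18, 1.91 and 3.09 in ICH and 1.59, 0.925, 0.513, 0.128 and 1.17 in NYKD CPM. Every NYKD library was below every ICH library, and NYKD replicate 1 lay within the sham range. The change was -1.55 ± 0.49 (adjusted p = 0.0764) in NYKD against ICH and -1.70 ± 0.49 (adjusted p = 0.0183) in NYKD against sham. Without sham replicate 2 or 4 the latter had an adjusted p of 0.0512 or 0.053. Atcay ran from 134 to 177 in sham, 57.7 to 114 in ICH and 94.7 to 149 in NYKD CPM and fell by 0.77 ± 0.18 in ICH against sham (adjusted p = 0.00715). The ratio fell, at -2.07 ± 0.49 (adjusted p = 0.0246) in NYKD against ICH. It had an adjusted p of 0.0621 without ICH replicate 5, 0.0578 without NYKD replicate 3 and 0.0542 without NYKD replicate 4.

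Markers of striatal projection neurons are set beside Grin1os, Sorbs2os, Chn1os3, Rapgef4os2 and Atcayos, but did not follow them throughout. In ICH against sham Grin1os gave 0.01, Sorbs2os 0.08, Chn1os3 -0.23 and Atcayos -0.15, none of them called. Of the 9 listed marker genes, 6 fell in NYKD against sham, and none was at 0 in every library. No listed marker gene was called in ICH against sham or in NYKD against ICH. Their summed level was 955 CPM in sham replicate 1 and 4976 to 5408 CPM in the other sham libraries, 826 to 4642 CPM in ICH and 174 to 2131 CPM in NYKD. Sham replicate 1 was thus far below the rest of its group in the markers that define the labelled tissue. Sham replicate 5, at 5129 CPM in these markers, had the lowest sham level of Grin1os, Sorbs2os, Chn1os3 and Atcayos. NYKD replicate 5, at 174 CPM, had the lowest NYKD level of Sorbs2os and Chn1os3 but the highest of Rapgef4os2. Among 10 forebrain interneuron markers, of which Gad1 and Dlx6 are also hosts, 1 fell in ICH against sham and 3 in NYKD against sham, and the sum was 1277 to 1620 CPM in sham, 637 to 1317 CPM in ICH and 527 to 1031 CPM in NYKD. Of 8 cortical and thalamic neuron markers none was called by edgeR in any comparison, and their sum was 321 to 969 CPM in sham, 261 to 668 CPM in ICH and 437 to 1008 CPM in NYKD. No gene of either list was at 0 in every library. The part of these markers in the changes of Grin1os, Sorbs2os, Chn1os3, Rapgef4os2 and Atcayos was not tested.

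The difference between a transcript and its host was tested directly with limma on the log2 ratio of the pair in each library, over 5176 pairs of opposite-strand neighbours that include 91 of the host pairs. In ICH against sham, 5 ratios rose and 2 fell, where 14.0% of all pairs were called. In NYKD against ICH none rose and 6 fell, where 7.81% were called. In NYKD against sham 2 rose and 10 fell, where 20.6% were called. Ratios of the 5085 other pairs were taken as the gene with the lower mean over its neighbour. Of these, 490 rose and 230 fell in ICH against sham, and 85 rose and 313 fell in NYKD against ICH. In NYKD against sham 524 of them rose and 531 fell. The first count was 4 without sham replicate 3 or ICH replicate 3 and 3 without ICH replicate 1. The second was 10 without sham replicate 5, 2 without ICH replicate 4, 1 without ICH replicate 5 or NYKD replicate 4, 0 by limma without NYKD replicate 3 (19 at an unadjusted p under 0.05) and 3 without NYKD replicate 5. The third was 6 without NYKD replicate 5 and 18 without sham replicate 5. At an unadjusted p under 0.05 there were 15, 22 and 23 ratios among the 91 host pairs. Among the 5085 other pairs there were 1498, 1336 and 1699.

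**Figure D4:**
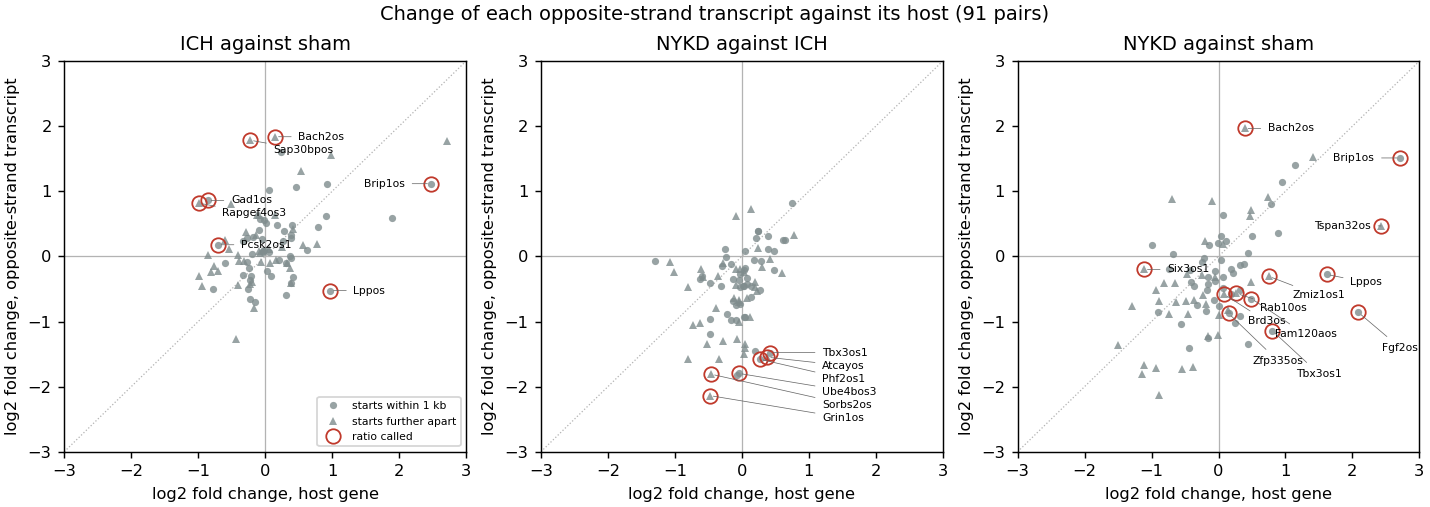
Log2 fold change of each opposite-strand transcript (vertical) against that of its host (horizontal) for 91 pairs in the 3 comparisons, with circled pairs called in the ratio test. In NYKD against ICH the 6 circled pairs lie below the dotted line of equal change, and in NYKD against sham Lppos and Fgf2os lie far below it.

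Transcript and host moved in the same direction in 51 of 91 pairs in ICH against sham (56.0%), as did 55.6% of the 5085 other neighbour pairs. In NYKD against ICH the same direction was seen in 59 pairs (64.8%) and 52.6% of the others, and in NYKD against sham in 60 pairs (65.9%) and 56.8% of the others. Across pairs, the Pearson correlation of the fold changes was 0.40, 0.27 and 0.50 in the same order, against 0.21, 0.18 and 0.22 for other neighbours. Both genes of a pair are measured in the same libraries and may share reads. Over the 31 pairs with no shared exon base the correlations were 0.16, 0.21 and 0.36. Some of these transcripts lie over host introns, so shared reads are not excluded for them. Both genes were called in the same direction in 3 pairs in ICH against sham, in no pair in NYKD against ICH and in 8 pairs in NYKD against sham. Opposite calls were made in 2 pairs, Tbx3os1 with Tbx3 and Fam120aos with Fam120a, both in NYKD against sham. Joint calls were not counted among the 5085 other pairs, so these counts have no share to set beside them and are a description only.

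Lppos (ENSMUSG00000097867, chr16:24391612-24393588, minus strand) starts 48 bases from Lpp, which encodes a LIM-domain protein of focal adhesions. Lppos stood at 3.27, 3.60, 3.39, 2.57 and 5.75 in sham, 2.43, 3.08, 2.83, 1.34 and 3.21 in ICH and 2.54, 3.58, 3.72, 2.75 and 2.76 in NYKD CPM, and its groups overlapped. Lpp stood at 14.0, 13.4, 9.86, 18.0 and 17.5 in sham, 44.9, 20.2, 33.7, 21.9 and 21.8 in ICH and 35.9, 48.3, 39.3, 42.0 and 57.8 in NYKD CPM, with every ICH and NYKD library above every sham library. Lpp rose by 0.97 ± 0.23 (adjusted p = 0.00798) in ICH against sham and 1.62 ± 0.23 (adjusted p = 0.000125) in NYKD against sham, while Lppos gave -0.52 ± 0.28 (adjusted p = 0.214) and -0.28 ± 0.28 (adjusted p = 0.5). The ratio fell in both, at -1.44 ± 0.34 (adjusted p = 0.00766) and -1.85 ± 0.34 (adjusted p = 0.000686).

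Fgf2os (ENSMUSG00000054779, chr3:37335332-37349740, minus strand) overlaps the 5′ end of Fgf2, which encodes basic fibroblast growth factor, and shares no exon base with it. Its levels were low, at 0.185, 0.857, 0.384, 0.855 and 0.290 in sham, 0.511, 0.604, 0.413, 1.55 and 0.848 in ICH and 0, 0.370, 0.0641, 0.128 and 0.822 in NYKD CPM, with no count in NYKD replicate 1. The edgeR test did not call it in any comparison, with -0.86 ± 0.73 (adjusted p = 0.419) in NYKD against sham. Fgf2 stood at 12.4, 15, 13.6, 11.3 and 14.0 in sham, 47.2, 36.8, 68.0, 61.8 and 33.4 in ICH and 56.8, 59.1, 37.3, 58.8 and 70.3 in NYKD CPM. Every ICH and NYKD library of Fgf2 was above every sham library, and it rose by 1.90 ± 0.21 (adjusted p = 3.47e-05) and 2.09 ± 0.21 (adjusted p = 7.3e-06). The ratio fell, at -2.96 ± 0.54 (adjusted p = 0.000743) in NYKD against sham, on a scale that adds a prior count of 2.

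Fam120aos (ENSMUSG00000097059, chr13:48968287-48972031, plus strand) starts 270 bases from Fam120a, an RNA-binding protein, and does not overlap it. Its levels were 18.6, 16.6, 13.7, 11.4 and 21.2 in sham, 8.37, 14.2, 13.9, 14.1 and 15.1 in ICH and 11.6, 10.9, 10.4, 10.2 and 8.93 in NYKD CPM. It fell by 0.65 ± 0.19 on the log2 scale in NYKD against sham (adjusted p = 0.022). Without sham replicate 1 or NYKD replicate 5 the adjusted p was 0.0509 or 0.0643. Fam120a stood at 156, 170.4, 163, 191 and 171 in sham, 237, 191, 276, 204 and 223 in ICH and 215, 259.8, 242, 224 and 256 in NYKD CPM. ICH replicate 2, at 191.2 CPM, lay just below sham replicate 4, at 191.3 CPM. The other ICH libraries and all NYKD libraries were above every sham library. Fam120a rose by 0.41 ± 0.12 (adjusted p = 0.0303) in ICH against sham and 0.49 ± 0.12 (adjusted p = 0.00891) in NYKD against sham. The ratio fell, at -1.10 ± 0.24 (adjusted p = 0.00269) in NYKD against sham and gave -0.71 ± 0.24 (adjusted p = 0.0529) in ICH against sham.

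**Figure D5:**
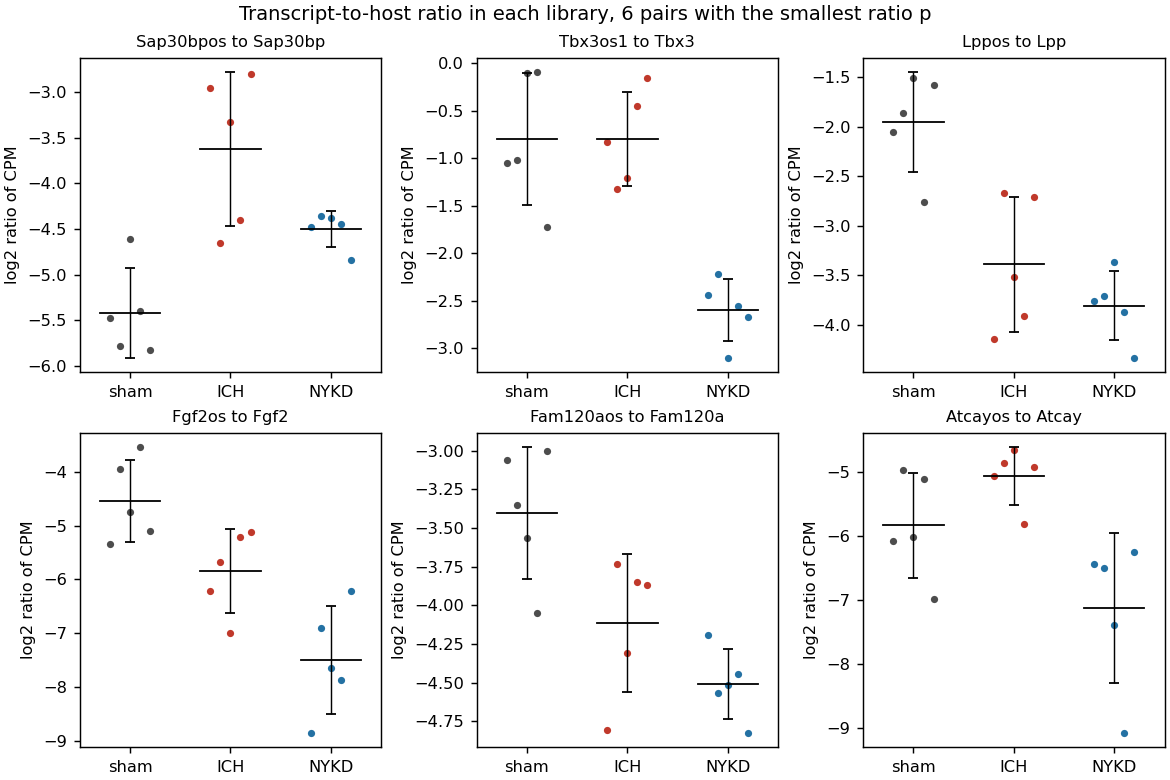
Log2 ratio of transcript to host CPM in each library for the 6 pairs with the smallest ratio p, with group mean (bar) and SD over 5 libraries. All NYKD libraries lie below all sham and ICH libraries for Tbx3os1, and all ICH and NYKD libraries except 2 ICH libraries lie below every sham library for Lppos.

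The other ratio calls were chosen for naming after their values were seen. In ICH against sham, Gad1os relative to Gad1, the enzyme that makes GABA, rose by 1.64 ± 0.50 (adjusted p = 0.0342), and Gad1 itself fell by 0.86 on the log2 scale (adjusted p = 0.0101). Pcsk2os1 relative to Pcsk2, a prohormone convertase, rose by 1.00 ± 0.32 (adjusted p = 0.0456). In NYKD against ICH, Phf2os1 relative to Phf2, a histone demethylase, fell, at -1.74 ± 0.43 (adjusted p = 0.0272), with Phf2os1 at 3.88, 1.49, 3.78, 1.97 and 0.523 in sham, 2.68, 2.66, 2.42, 5.16 and 4.18 in ICH and 1.42, 1.05, 1.22, 0.769 and 1.23 in NYKD CPM. All NYKD libraries of Phf2os1 were below all ICH libraries, and sham libraries spanned both. Ube4bos3 relative to Ube4b, a ubiquitin ligase, changed by -1.52 ± 0.45 (adjusted p = 0.0447) in that comparison. In NYKD against sham, Zmiz1os1 relative to Zmiz1, a transcriptional coregulator, changed by -1.01 ± 0.33 (adjusted p = 0.0393), Brd3os relative to Brd3, a reader of acetylated histones, by -0.67 ± 0.18 (adjusted p = 0.0135), and Zfp335os relative to Zfp335, a zinc finger protein, by -1.01 ± 0.34 (adjusted p = 0.0391).

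Galnt6os, Foxl2os, Zeb2os, Brd3os, Zfp335os and Far1os were called outside the 12 with the smallest p, and were not recomputed singly under other settings. Galnt6os, inside a gene for an enzyme that starts O-linked glycans, ran from 0.343 to 0.768 in sham, 0.543 to 2.59 in ICH and 0.641 to 1.42 in NYKD CPM and rose by 1.31 ± 0.42 (adjusted p = 0.0432) in ICH against sham. Foxl2os, beside a forkhead transcription factor, ran from 0.0581 to 0.833 in sham, 0.767 to 2.54 in ICH and 0.236 to 0.940 in NYKD CPM and rose by 1.61 ± 0.53 (adjusted p = 0.0451) in ICH against sham. Zeb2os, inside the gene of the transcription factor Zeb2, ran from 0.263 to 1.60 in sham, 1.15 to 2.84 in ICH and 1.83 to 2.50 in NYKD CPM and rose by 1.15 ± 0.38 (adjusted p = 0.0382) in NYKD against sham, as did Zeb2 by 0.94 ± 0.20 (adjusted p = 0.00316). In the same comparison, Brd3os changed by -0.58 ± 0.19 (adjusted p = 0.0328), Zfp335os by -0.88 ± 0.30 (adjusted p = 0.0457), and Far1os, inside a fatty acyl-CoA reductase gene, by -0.89 ± 0.31 (adjusted p = 0.046).

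The 6 transcripts with the highest mean were Rab10os, Brip1os, Wdr83os, Cep83os, Slc7a6os and Six3os1. Rab10os (ENSMUSG00000079179, chr12:3235504-3250377, plus strand), which overlaps the 3′ end of the small GTPase gene Rab10, stood at 59.4, 50.7, 49.8, 50.8 and 31.7 in sham, 40.3, 47.1, 34.3, 54.1 and 51.2 in ICH and 43.9, 28.9, 30.8, 29.1 and 30.6 in NYKD CPM. It fell by 0.57 ± 0.18 on the log2 scale in NYKD against sham (adjusted p = 0.0278), a call that missed the threshold when any of 8 libraries was left out, with a highest adjusted p of 0.0703, without sham replicate 1. Rab10 ran from 162 to 216 in sham, 145 to 242 in ICH and 203 to 257 in NYKD CPM, and the ratio fell, at -0.83 ± 0.27 (adjusted p = 0.0328). Wdr83os (ENSMUSG00000059355, chr8:85080740-85082339, plus strand) encodes Asterix, a chaperone of membrane proteins in the endoplasmic reticulum, and starts 6 bases from Wdr83. It ran from 23.6 to 31.7 in sham, 22.5 to 31.3 in ICH and 20.7 to 27.1 in NYKD CPM, and its change was -0.09 ± 0.13 (adjusted p = 0.676) in ICH against sham and -0.11 ± 0.13 (adjusted p = 0.643) in NYKD against ICH. Exons of Wdr83 cover 52.3% of its exon bases.

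Cep83os (ENSMUSG00000097164, chr10:94671025-94688576, minus strand), 78 bases from the start of the centriole appendage gene Cep83, ran from 20.6 to 32.1 in sham, 17.6 to 34.3 in ICH and 16.7 to 32.3 in NYKD CPM. It gave 0.06 ± 0.20 (adjusted p = 0.863) in ICH against sham and -0.15 ± 0.20 (adjusted p = 0.681) in NYKD against ICH, and the ranges of the groups overlapped. Slc7a6os (ENSMUSG00000033106, chr8:106200717-106210935, minus strand), whose yeast counterpart helps to import RNA polymerase II into the nucleus, lies downstream of the amino acid transporter gene Slc7a6. It stood at 25.7, 25.2, 21.1, 22.6 and 18.9 in sham, 20.2, 25.0, 27.4, 31.9 and 24.2 in ICH and 19.8, 22.1, 15.8, 16.1 and 19.4 in NYKD CPM and changed by -0.47 ± 0.15 (adjusted p = 0.0801) in NYKD against ICH, and by -0.54 with an adjusted p of 0.0355 without ICH replicate 1. Slc7a6 fell by 0.81 ± 0.20 in that comparison (adjusted p = 0.0399), where all NYKD libraries were below all ICH libraries. It missed the threshold when any of 10 libraries was left out, with adjusted p values up to 0.0973, without NYKD replicate 3.

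Six3os1 (ENSMUSG00000093460, chr17:85600651-85618398, minus strand) overlaps the 5′ end of Six3, a homeobox gene of forebrain development that is also active in striatal neurons. Its levels were 19.1, 31.4, 22.7, 20.4 and 12.8 in sham, 21.3, 18.5, 15.2, 17.9 and 42.2 in ICH and 24.4, 28.0, 15.1, 9.03 and 16.1 in NYKD CPM, with ICH replicate 5 far above the others of its group. It was not called, with -0.31 ± 0.32 (adjusted p = 0.594) in NYKD against ICH and -0.20 ± 0.32 (adjusted p = 0.694) in NYKD against sham. Six3 ran from 45 to 82.5 in sham, 20.1 to 69.7 in ICH and 18.0 to 45.3 in NYKD CPM and fell by 1.11 ± 0.34 in NYKD against sham (adjusted p = 0.0286). The ratio of Six3os1 to Six3 rose by 0.93 ± 0.23 (adjusted p = 0.00717) in that comparison.

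Hosts without a called transcript also changed. In ICH against sham, the largest rises among such hosts were those of Has2, a hyaluronan synthase, by 2.59 ± 0.53 (adjusted p = 0.00306), Fgf2, and Smc2, a condensin subunit, by 1.26 ± 0.29 (adjusted p = 0.00686). The largest falls were those of Rapgef4, of St8sia3, a sialyltransferase, by -0.94 ± 0.31 (adjusted p = 0.0451), and of Gad1. Has2 stood at 0.555, 1.20, 0.576, 0.789 and 0 in sham, 4.41, 4.53, 5.60, 2.40 and 2.06 in ICH and 4.37, 4.13, 5.64, 6.21 and 9.11 in NYKD CPM. Only the host was called in 14 of the 91 pairs in ICH against sham, 4 in NYKD against ICH and 16 in NYKD against sham, and only the transcript in 4, 4 and 7. The same counts were not made for other neighbour pairs, so these are a description only.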

How the data were processed

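The authors deposited whole-number read counts per gene with no normalisation, per the file headers. HISAT2 2.0.5, edgeR 3.22.5 and mm10 appear, with no role stated, per the submitters' processing notes. How reads were counted, on which annotation and with what strand setting is not given in the sources used here. Symbols, exons and strands came from GENCODE mouse M21, and promoter windows from RefSeq.

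Genes were filtered with filterByExpr, scaled by TMM and fitted in 1 edgeR 4.0.16 quasi-likelihood model of 15 libraries with a coefficient per group (R 4.3.3), tested on simulated data. Adjusted p values are Benjamini-Hochberg values over all 18052 genes. Values after ± are standard errors, approximated by dividing the size of the log2 fold change by the root of the F statistic. Ratios were tested with limma 3.58.1 (trend and robust) on differences of log2 CPM with a prior count of 2, adjusted over 5176 pairs that overlap or lie within 5 kb. CPM is TMM-scaled, except summed CPM and the mean used to choose members, which use library totals. P values measure the spread between mice.

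Members, lists and tests were chosen with earlier results of these data known. Named transcripts were the 12 with the smallest p, the 6 with the highest mean and the 6 with the smallest ratio p, each with its host, and for the first 2 by p the 3 most correlated genes. Other names were chosen after their values were seen. Replicate numbers did not pair the samples. Some genes are not reported here by name.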

Additional observations from a re-analysis of the deposited data

Results flagged for a closer look

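Among 135 sets of 5 libraries examined, 9 had 1 library far from the other 4 by Dixon's test, which chance gives in about 1 set in 20. Sap30bpos was 1.86 CPM in sham replicate 3 and 0.800 to 1.05 CPM in the other sham libraries. Rab10os was 43.9 CPM in NYKD replicate 1, against 28.9 to 30.8 CPM. Six3os1 was 42.2 CPM in ICH replicate 5, against 15.2 to 21.3 CPM. Fam120aos was low in ICH replicate 1, at 8.37 CPM against 13.9 to 15.1 CPM. Among hosts, Prox2 was 6.54 CPM in ICH replicate 5 against 3.92 to 4.66 CPM, Rapgef4 was 149 CPM in NYKD replicate 5 against 311 to 371 CPM, Jun was 65.4 CPM in sham replicate 1 against 37.8 to 44.1 CPM, and Slc7a6 was 13.3 CPM in sham replicate 5 against 25.9 to 29.5 CPM. The summed level of the 126 transcripts was 309 CPM in sham replicate 5 and 401 to 436 CPM in the other sham libraries.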

How the results depend on the processing

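Counts are given in the order transcripts, hosts and ratios. DESeq2 1.42.0 called 11 transcripts in ICH against sham, and 9 transcripts and 10 hosts in NYKD against ICH. Limma-voom called 1 transcript and 3 hosts in NYKD against ICH. Without a filter on low counts, 2 transcripts were called in NYKD against ICH and 11 in NYKD against sham. Fits of the 2 compared groups alone called 4 ratios in ICH against sham. With a minimum mean of 1 CPM, 4 transcripts and 12 hosts were called in ICH against sham, 3 hosts in NYKD against ICH and 19 hosts in NYKD against sham, and the mean was lower for 56 of 67 transcripts in NYKD than in ICH and for 53 in NYKD than in sham. With a minimum of 0.1 CPM, 37 hosts were called in ICH against sham. Among pairs sharing no exon base, calls were 2, 10 and 4 in ICH against sham, 0, 2 and 0 in NYKD against ICH (edgeR and limma, with 5 transcripts and 7 ratios at an unadjusted p under 0.05) and 3, 12 and 4 in NYKD against sham, with 13, 35 and 28 of 45 transcripts at a lower mean. Fewer members entered these last settings. The cause of the other shifts was not tested.

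Replicate numbers were no pairing: libraries with the same number had correlated deviations of -0.31 to 0.24. With the replicate block, edgeR called 0 transcripts (22 at an unadjusted p under 0.05) and 0 hosts (29) in NYKD against ICH. The other block counts were 5, 17 and 6 in ICH against sham, 12, 23 and 9 in NYKD against sham, and 4 ratios in NYKD against ICH.

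Leaving out single libraries gave 5 to 8 transcripts, 17 to 26 hosts and 3 to 10 ratios in ICH against sham, 0 to 8, 0 to 14 and 0 to 10 in NYKD against ICH, and 9 to 23, 22 to 34 and 6 to 18 in NYKD against sham. A lower mean was seen for 38 to 59, 97 to 104 and 80 to 87 transcripts. Six3os1 in NYKD against ICH, at -0.31, ranged from -0.51 to 0.0293, the latter without ICH replicate 5. Of the other alternatives for named genes and ratios, 1000 kept direction and side of the threshold, 87 lost the call and 4 gained one.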
